A study of Homo sapiens with 6 samples.

Results

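Long intergenic noncoding RNAs (lincRNAs) are transcripts of at least 200 bases that code for no known protein and, in the annotation, lie between protein-coding genes. The expressed lincRNAs of differentiated HepaRG cells were selected on their level: type lincRNA in the authors' deposited table, a length of 200 bases or more, and a mean of at least 1 FPKM (fragments for each kilobase of a gene and each M reads assigned) over 6 libraries. This gave 431 of the 7539 lincRNAs and of the 58037 genes of all types in the table. Of the 7539, 4276 were listed at 0 in every library. The members with means just inside the threshold had 1.004, 1.006 and 1.016 FPKM, and those just outside had 0.9995, 0.9968 and 0.9963 FPKM. Since level chose the members, the levels below are a description. The rule itself uses no difference between the groups, but lincRNAs were taken up with earlier results of these data known. A lincRNA can also reach the mean through 1 group alone while it is low in the other.

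HepaRG is an established human line from a hepatocellular carcinoma that differentiates in culture into hepatocyte-like and biliary-like cells. Passages 15 to 18 were used. Growth took 14 days and differentiation another 14 days, and a basal medium with penicillin, streptomycin, insulin and hydrocortisone followed for 5 days. The fatty acid group (3 libraries) then received palmitate and oleate, 1 part to 2 parts and 0.5 mM together, bound to bovine serum albumin, for 72 h, and the control group (3 libraries) received 0.02% albumin without fatty acid for 72 h. This loading is used as a model of fat storage in liver cells. No label says that the replicates were separate cultures, so p-values reflect only how far these samples spread, and that spread may be technical.

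Most lincRNAs have no known function. Those with one work in several ways: some scaffold nuclear bodies, as NEAT1 does for paraspeckles; some bind and hold proteins, as NORAD does for Pumilio proteins; some are host transcripts from whose introns or exons small nucleolar RNAs or microRNAs are cut; and some act on, or merely accompany, the transcription of a neighbouring gene. Their levels are usually lower than those of messenger RNAs and differ strongly between tissues.

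Sequences from some members are given below as background and show no effect in these data. NORAD, on chromosome 20, was the most abundant member. Its GENCODE 29 transcript of 5339 bases holds 15 copies of the Pumilio element TGTANATA, or 2.81 per kb, against none in the median member, and 52 of the 423 members with a GENCODE 29 transcript hold at least 1 on the transcript strand. A member of 447 bases had more per kb, with 5 copies. The following 3 windows of 30 bases of the NORAD transcript are shown because their repeated form is the unit that Pumilio proteins bind. Capitals mark 1 element per window, and the last window holds a further element, from base 3284, in lower case.
NORAD bases 1129 to 1158: cctcactactgTGTATATAgttgacaatgc
NORAD bases 2961 to 2990: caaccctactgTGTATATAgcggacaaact
NORAD bases 3264 to 3293: ttactgtgctgTGTATATAgtgtatataag

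Among the members, 7 contain a microRNA gene, with 12 mature microRNAs in RefSeq (GRCh38.p14). The 3 microRNAs that name a well-known host are shown with the seed, bases 2 to 8, in capitals. No seed is shared among these 3, and mature microRNAs were not measured in poly-A libraries.
hsa-miR-210-3p (host MIR210HG, chr11:568112-568133, minus strand): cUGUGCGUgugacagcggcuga
hsa-miR-22-3p (host MIR22HG, chr17:1713914-1713935, minus strand): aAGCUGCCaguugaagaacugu
hsa-miR-4435 (host MIR4435-2HG, chr2:111321061-111321082, minus strand): aUGGCCAGagcucacacagagg

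Of the 431 members, 172 had an entry in the RefSeq promoter table (250 bases before to 50 after the start). The promoters of LINC00844 and MIR210HG are shown because these were the well-known lincRNAs that fell with fatty acid, and they are unlike each other in base composition. LINC00844 (43.0% G and C, 2 CpG) starts in RefSeq 108 bases before its start in the deposited table; MIR210HG (80.0% G and C, 44 CpG) starts at the same base in both. The median member promoter had 61.0% G and C and 21 CpG, and the median of all 35116 promoters had 58.7% and 14 CpG. Capitals mark motif matches on either strand: in LINC00844 1 C/EBP site (TTNNGCAA, in 10.5% of all promoters) and 1 CCAAT box (34.6%), and in MIR210HG 4 GC boxes (CCGCCC, 45.0%), 1 CCAAT box and 2 hypoxia response element cores (NCGTG, 66.9%, a motif added after the data were seen).
LINC00844 promoter (chr10:58999268-58999567, plus strand): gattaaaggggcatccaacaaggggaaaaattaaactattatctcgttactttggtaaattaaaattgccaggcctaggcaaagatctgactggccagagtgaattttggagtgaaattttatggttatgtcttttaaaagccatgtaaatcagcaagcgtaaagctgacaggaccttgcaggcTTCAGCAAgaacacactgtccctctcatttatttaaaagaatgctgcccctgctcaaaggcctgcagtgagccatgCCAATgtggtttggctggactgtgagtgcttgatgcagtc
MIR210HG promoter (chr11:568408-568707, minus strand): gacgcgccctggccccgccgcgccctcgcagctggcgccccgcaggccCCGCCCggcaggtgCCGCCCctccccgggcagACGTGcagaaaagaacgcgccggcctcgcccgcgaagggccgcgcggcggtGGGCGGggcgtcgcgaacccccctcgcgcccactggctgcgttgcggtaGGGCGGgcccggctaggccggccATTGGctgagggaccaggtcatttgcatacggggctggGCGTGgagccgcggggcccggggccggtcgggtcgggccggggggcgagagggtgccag

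The same search over the 172 member promoters found no match to the direct repeat bound by PPAR receptors (AGGTCANAGGTCA, in 0.0228% of all promoters). An AP-1 site (TGANTCA) was in 8.72% of member promoters and in 7.71% of all, a TATA box (TATAAA) in 10.5% and 11.5%, and an NF-kappa-B site (GGGANTTCC) in 1.16% and 1.85%. C/EBP sites stood in 6.4% of member promoters, CCAAT boxes in 41.3%, GC boxes in 55.2% and hypoxia cores in 69.2%. These are letters in a window and say nothing of whether a factor binds there.

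The libraries held 8.36, 14.36 and 15.94 M reads with fatty acid and 8.96, 6.33 and 11.82 M in control, as recovered from the steps of the FPKM values. Mitochondrially encoded genes took 9.147% to 11.91% of the reads with fatty acid and 12.23% to 14.96% in control. Hepatocyte markers were all detected and moved with the treatment: of 10, 7 were lower and 2 higher (FGB and SERPINA1). Their summed level was 12250 to 12750 FPKM with fatty acid and 16180 to 16850 FPKM in control. Most of that sum was ALB (7127 FPKM with fatty acid, 12030 FPKM in control), so it follows ALB rather than the list. FGB (1937 FPKM with fatty acid, 1185 FPKM in control) and SERPINA1 (2666 and 2212 FPKM) went the other way. Of 6 biliary and progenitor markers tested, CD24 was lower. The summed level of all 8 listed was 426.7 to 443.6 FPKM with fatty acid and 446.7 to 522.2 FPKM in control, with EPCAM at 0. Most of that sum was KRT19, which did not pass (316.0 FPKM with fatty acid, 342.7 FPKM in control, limma adjusted p = 0.369). Of 6 mesenchymal markers tested, LUM was higher, and the sum of all 8 was 117.4 to 125.2 FPKM with fatty acid and 100.4 to 110.3 FPKM in control, with THY1 at 0. Among 8 immune and endothelial markers 1 could be tested and did not pass, CDH5 was at 0, and the sum was 13.23 to 14.43 FPKM with fatty acid and 9.506 to 14.31 FPKM in control. In such bulk samples, fewer cells of a type and less RNA per cell cannot be told apart, and the part of these shifts in the lincRNA results below was not tested.

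Expressed lincRNAs were short and weakly covered. Their median length was 1202 bases, against 5034 bases for the 11015 protein-coding genes that reached a mean of 1 FPKM, and their median level was 2.085 FPKM, with quartiles of 1.452 and 4.288 FPKM, against 6.277 FPKM for those coding genes. The median member rested on 197 reads over all 6 libraries and the lowest on 16, against a median of 2154 reads for coding genes. The median coefficient of variation between replicates was 14.8% with fatty acid and 20.18% in control for the lincRNAs, and 5.673% and 8.723% for coding genes. Only 27 members reached a mean of 10 FPKM, 10 reached 20 FPKM and 4 reached 50 FPKM.

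The summed level of the 431 lincRNAs was nearly the same in both groups. It was 1798, 1814 and 1792 FPKM with fatty acid and 1843, 1912 and 1855 FPKM in control, so the 3 fatty acid libraries were all below the 3 control libraries, by a small margin that did not hold under TPM (5193 to 5678 TPM with fatty acid and 4969 to 5295 TPM in control). In reads, the lincRNAs took 0.4902% ± 0.00858 with fatty acid and 0.4948% ± 0.02062 in control (SD, n = 3 each), and these shares overlapped. Without NORAD the sums were 1698 ± 9.238 FPKM with fatty acid and 1778 ± 31.66 FPKM in control.

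GENCODE 29, a later annotation of the same genome build, still lists 406 of the members as lincRNA, and 8 have no entry there. It lists 2 members as protein-coding and 3 as transcribed unprocessed pseudogenes, and the rest under other noncoding types. Of the 423 with an entry, 101 have 1 exon in every transcript, and the median of the largest exon number is 3. The name intergenic is not strict: 64 members overlap a coding gene's span, 46 on the opposite strand and 18 on the same strand. A further 151 lie divergent from their nearest coding gene, 65 of them within 1 kb of it, as transcripts from a shared promoter region do. The remaining 62 are convergent, 93 lie downstream and 61 upstream on the same strand. The median gap to the nearest coding gene was 8518 bases, and 155 members lay over 50 kb from any. The libraries were stranded, but whether strand was used in counting is not given in the labels or notes used here. Reads of the 162 members that overlap a gene of any type on the opposite strand may not be separated from it. Another 90, partly the same, overlap a gene on the same strand.

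Few lincRNAs passed the test, and those that did were mostly lower, chiefly among members with under 500 reads. In the limma fit over all 14661 genes tested, 27 of the 431 members, or 6.26%, passed a Benjamini-Hochberg adjusted p of 0.05, against 12.9% of all genes tested and 15.7% of the coding genes that reached a mean of 1 FPKM. Of these, 6 were higher with fatty acid (1.39% of members, against 8.22% of all genes and 10.6% of coding genes) and 21 were lower (4.87%, against 4.68% and 5.08%). All 431 members passed the filter for testing, a mean of 0.5 FPKM, which is under the level that chose them. The median log2 fold change (fatty acid minus control, of FPKM + 0.5, a scale that understates changes of low genes) was -0.04 for members, 0.04 for all genes tested and 0.06 for coding genes; 188 members lay above 0 and 243 below. Rescaling to TPM, which brought the median over all genes to 0.18 and the members' median to 0.08, turned the balance to 25 members higher and 16 lower. The count also depended on single libraries: it was 6 without fatty acid replicate 1, 8 without fatty acid replicate 2, 15 without fatty acid replicate 3, 18 without control replicate 2 and 15 without control replicate 3.

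The groups did not overlap for 94 members, or 21.8%, against 37.1% of all genes tested and 42.4% of coding genes. Of these, 32 were higher with fatty acid (7.42%, against 23.7% of all genes and 28.9% of coding genes) and 62 were lower (14.4%, against 13.3% and 13.5%). In 8 members the log2 fold change was 1 or more in size, and 5 of these passed the test. Of the other noncoding classes that reached a mean of 1 FPKM, 8.05% of 410 antisense genes (3 higher, 30 lower), 9.68% of 62 processed transcripts, 8.16% of 49 sense intronic genes, 10.5% of 19 sense overlapping genes and 3.45% of 29 genes of type TEC passed.

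**Figure D1:**
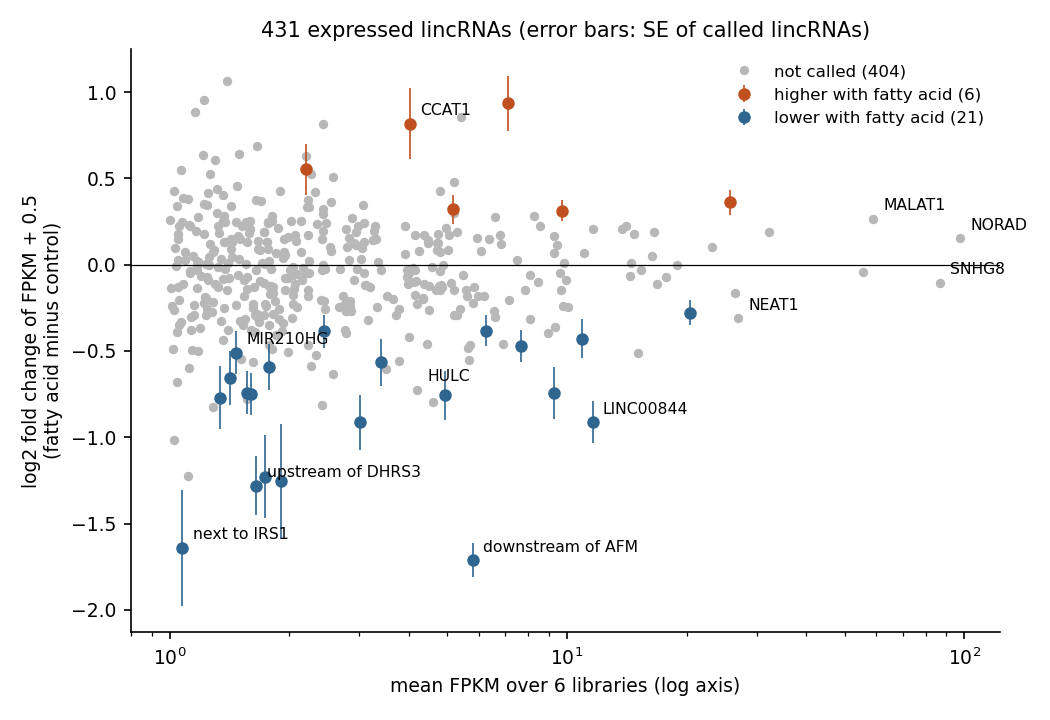
Mean FPKM over 6 libraries (log axis) against the log2 fold change, fatty acid minus control, for the 431 lincRNAs; orange points (6) were higher and blue points (21) lower at an adjusted p under 0.05, with SE bars, and grey points (404) did not pass. The changes past 1 are lower with fatty acid among the called lincRNAs, and the most abundant, NORAD, SNHG8 and MALAT1, lie near 0.

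Read depth differs between lincRNAs and coding genes, so the shares were set side by side within bins of total reads. Under 200 reads, 11 of 219 lincRNAs (5.02%) and 15.1% of coding genes passed. From 200 to 500 reads the shares were 6.9% of lincRNAs and 10.2% of coding genes, from 500 to 1000 reads 7.55% and 9.35%, and from 1000 to 2000 reads 10.3% and 11.3%. Of the 14 lincRNAs with more reads, 0 of 6 between 2000 and 5000 and 1 of 8 above that passed, against 14.9% and 27.4% of coding genes. The shares of lincRNAs were thus lower in every bin, by little between 500 and 2000 reads, and no test of the difference was made. Direction also went with reads. Under 200 reads 0 called lincRNAs were higher and 11 lower, and from 200 to 500 reads 1 and 7. From 500 to 1000 reads 3 were higher and 1 lower, from 1000 to 2000 reads 1 and 2, and above 5000 reads 1 and 0. Coding genes were likewise more often lower in the bins under 1000 reads (7 higher and 17 lower, 29 and 52, 67 and 87). From 1000 reads up they were more often higher.

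**Figure D2:**
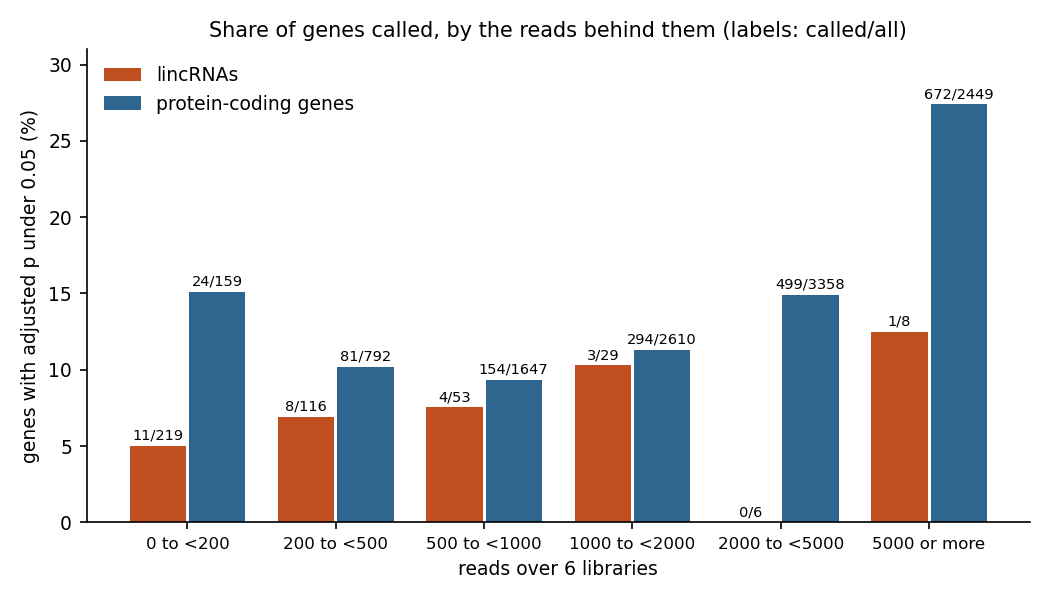
Percent of genes with an adjusted p under 0.05 by reads over 6 libraries, for lincRNAs (orange) and protein-coding genes that reached a mean of 1 FPKM (blue); numbers above the bars are called over all. The orange bar is lower in every bin, for example under 200 reads (5.02% of lincRNAs, 15.1% of coding genes), and the bins from 2000 reads up hold only 14 lincRNAs.

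The clearest change was in a lincRNA next to AFM. AFM encodes afamin, a plasma glycoprotein that carries vitamin E and belongs with ALB and AFP to the albumin gene cluster. The lincRNA lies on the same strand, 4802 bases downstream of AFM (chr4:73508803-73534128, GRCh38). It had 2.305, 2.159 and 2.892 FPKM with fatty acid and 9.070, 9.003 and 9.289 FPKM in control, so every fatty acid library lay far below every control library. The log2 fold change was -1.71 ± 0.10 (SE; limma adjusted p = 0.000142), and AFM itself fell too, to 23.6 ± 1.46 FPKM with fatty acid, against 56.6 ± 5.86 FPKM in control (log2 fold change -1.24, adjusted p = 0.00023). Both calls held with any 1 library left out. Reads of the lincRNA came to 115 with fatty acid and 296 in control, or 0.272 times the control per library read (95% exact conditional interval 0.218 to 0.339, counting error only). The albumin gene ALB, a hepatocyte marker of the same cluster, also fell (7127 ± 306.4 FPKM with fatty acid, 12030 ± 318.2 FPKM in control).

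LINC00844 was the well-known lincRNA with the lowest adjusted p. It lies on chromosome 10 (chr10:58999626-59001543), 168189 bases downstream of BICC1, an RNA-binding protein gene, on the same strand. It had 7.018, 7.590 and 9.074 FPKM with fatty acid and 17.773, 13.576 and 14.542 FPKM in control. The highest fatty acid library was well below the lowest control library, and the log2 fold change was -0.91 ± 0.12 (limma adjusted p = 0.0051, and between 0.00781 and 0.0323 with 1 library left out). BICC1 did not fall with it: it was higher with fatty acid (17.9 ± 1.12 FPKM, against 14.2 ± 0.525 FPKM in control; log2 fold change 0.32, adjusted p = 0.0219, and lost its call in 4 of the 6 fits with a library left out).

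MIR210HG, the host transcript of miR-210, a microRNA known for its induction by hypoxia, was low and fell. It had 1.082, 1.020 and 1.270 FPKM with fatty acid and 2.018, 1.565 and 1.859 FPKM in control, again with no overlap, and a log2 fold change of -0.51 ± 0.13 (limma adjusted p = 0.0396). The call was close to the threshold: it was lost in 5 of the 6 fits with 1 library left out, with adjusted p up to 0.139, and held without control replicate 2. The MIR210HG call was further lost with no expression filter (limma adjusted p = 0.108), under TPM (0.0567) and with the replicate block (0.0584). RASSF7, which converges on it from 1639 bases away, had 5.70 ± 1.05 FPKM with fatty acid and 8.09 ± 1.37 FPKM in control (log2 fold change -0.47, adjusted p = 0.078). The other microRNA hosts did not pass: MIR22HG, host of miR-22, had 7.447, 7.112 and 9.853 FPKM with fatty acid and 11.543, 9.362 and 10.652 FPKM in control (-0.36, limma adjusted p = 0.109), and MIR4435-2HG had 3.58 ± 0.386 FPKM with fatty acid and 2.99 ± 0.292 FPKM in control.

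CCAT1, a transcript first described in colon cancer from the gene desert near MYC, was the well-known lincRNA that was higher. It had 6.564, 4.999 and 4.209 FPKM with fatty acid and 3.769, 2.224 and 2.382 FPKM in control. The lowest fatty acid library stood just above the highest control library, and the log2 fold change was 0.82 ± 0.20 (limma adjusted p = 0.0412). This call also was lost in 5 of the 6 fits with 1 library left out (adjusted p up to 0.139) and held without control replicate 1. The CCAT1 call was further lost with no expression filter (limma adjusted p = 0.115), with nuclear scaling (0.0504) and without the intensity trend (0.072). PVT1, from the same region and next to MYC on the genome, had 1.458, 2.117 and 1.667 FPKM with fatty acid and 1.381, 1.438 and 1.478 FPKM in control, which overlapped (0.21, adjusted p = 0.321).

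The abundant nuclear and cytoplasmic RNAs showed no change past the test. NORAD had 104.8, 105.0 and 98.3 FPKM with fatty acid and 87.0, 98.4 and 92.0 FPKM in control (log2 fold change 0.15, limma adjusted p = 0.138). MALAT1, which sits at nuclear speckles, had 65.6, 70.1 and 54.3 FPKM with fatty acid and 34.5, 59.7 and 69.2 FPKM in control. Control replicate 1 was low for MALAT1, and the log2 fold change of 0.27 (adjusted p = 0.483) came to -0.03 without it. NEAT1, the paraspeckle scaffold, had 24.3, 20.2 and 27.8 FPKM with fatty acid and 30.2, 27.3 and 32.0 FPKM in control. The NEAT1 groups overlapped by a little, with a log2 fold change of -0.31 and a limma adjusted p of 0.12.

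Of the small nucleolar RNA host genes among the members, SNHG8 was the most abundant, at 83.6 ± 4.30 FPKM with fatty acid and 89.9 ± 4.00 FPKM in control. SNHG19 had 11.885, 9.772 and 15.774 FPKM with fatty acid and 17.613, 17.087 and 18.304 FPKM in control, without overlap, and missed the threshold (log2 fold change -0.51, limma adjusted p = 0.064). SNHG9 (-0.26), SNHG15 (-0.09), SNHG25 (-0.12) and EPB41L4A-AS1 (0.03), which also hosts a small nucleolar RNA, had adjusted p from 0.27 to 0.862. SNHG25, at 278 bases among the shortest, rested on 82 reads and ranged from 2.004 to 5.867 FPKM with fatty acid and from 2.841 to 6.821 FPKM in control.

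LincRNAs known from liver or its development gave mixed values. HULC, named for its high level in liver cancer, had 3.655, 2.504 and 2.821 FPKM with fatty acid and 3.611, 5.965 and 6.542 FPKM in control. Control replicate 1 lay within the fatty acid range, and the log2 fold change of -0.72 did not pass (limma adjusted p = 0.0638). LINC00261, which lies 2363 bases from FOXA2, a transcription factor gene of endoderm and liver, had 9.44 ± 0.702 FPKM with fatty acid and 9.79 ± 0.968 FPKM in control (-0.05), and FOXA2 had 7.47 ± 0.669 FPKM with fatty acid and 7.195 ± 0.546 FPKM in control (0.05). LINC01093, a liver-enriched transcript, had 3.28 ± 0.460 FPKM with fatty acid and 3.78 ± 0.504 FPKM in control (-0.18, adjusted p = 0.355). Its nearest coding gene, ACSL1, which activates long-chain fatty acids and lies 67053 bases away, was higher, at 329.6 ± 8.05 FPKM with fatty acid and 186.3 ± 5.19 FPKM in control (log2 fold change 0.82, adjusted p = 0.00014). FENDRR, divergent from FOXF1, had 0.834 ± 0.114 FPKM with fatty acid and 1.26 ± 0.270 FPKM in control (-0.39, adjusted p = 0.154).

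The remaining well-known lincRNAs did not pass the limma test. LINC00467 had a log2 fold change of -0.05 and LINC01503 of -0.15. Those with positive values were JPX, known as an activator in X inactivation (0.23), CASC9 (0.43), LINC00511 (0.35), LINC01138 (0.18), LINC00152 (0.13) and LINC01116 (0.12). Of these, JPX, CASC9, LINC00511 and LINC01138 had no overlap between groups; LINC00511, for example, had 1.415, 1.495 and 1.376 FPKM with fatty acid and 1.152, 0.953 and 0.943 FPKM in control, at an adjusted p of 0.0941. In all, 3 of 28 well-known lincRNAs passed, against 6.26% of all members and 12.9% of all genes tested. XIST belongs to the members and is counted, but its level is not given.

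**Figure D3:**
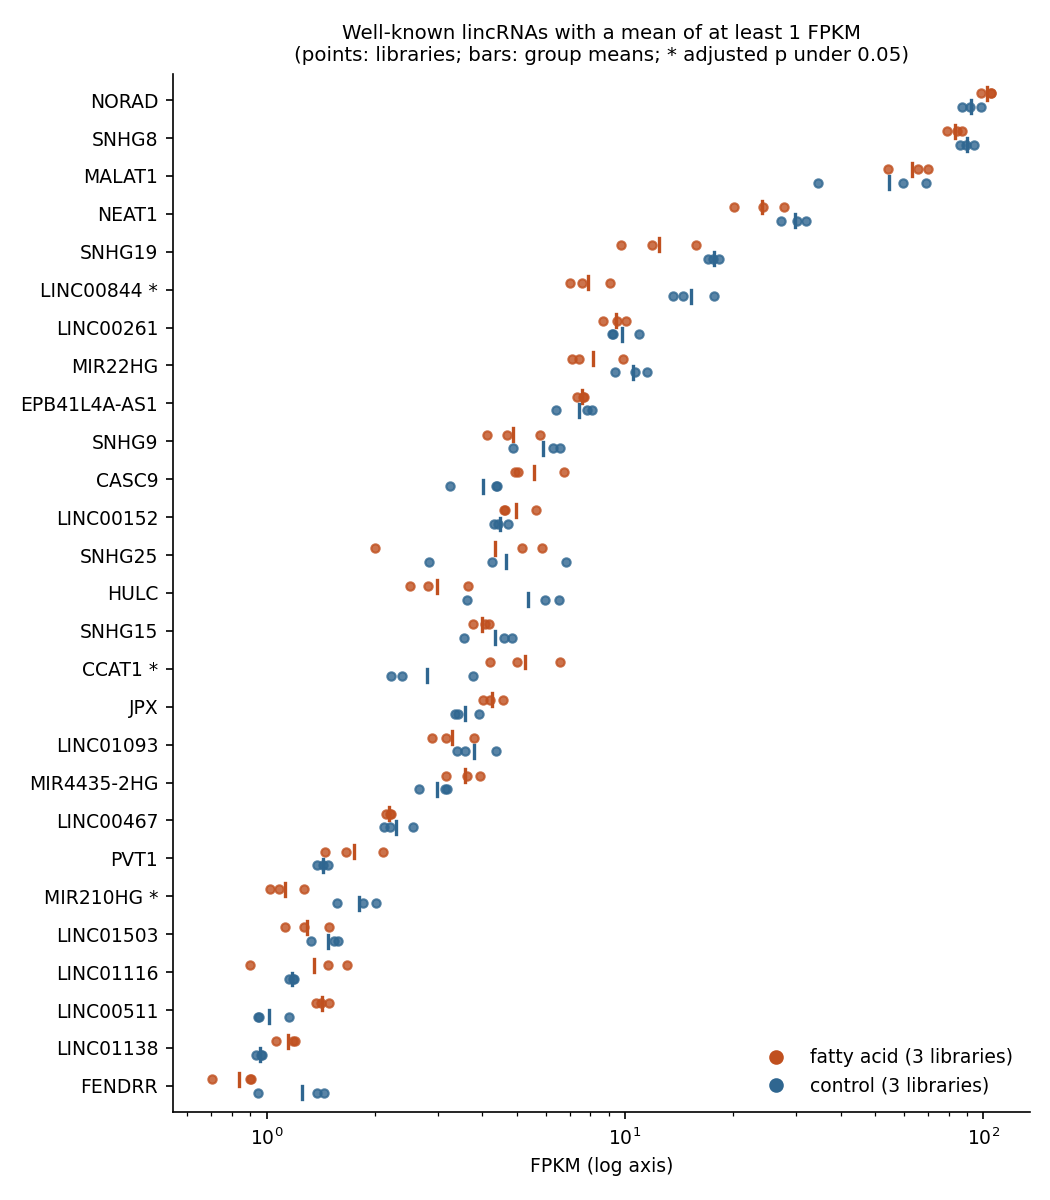
FPKM (log axis) of 27 well-known lincRNAs in each library, ordered by mean level, with fatty acid in orange above control in blue, bars at the group means, and an asterisk where the adjusted p was under 0.05. LINC00844 and MIR210HG show fatty acid points left of all control points, CCAT1 shows them to the right, and control replicate 1 of MALAT1 stands apart at 34.5 FPKM.

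Outside the well-known names, lincRNAs are described by their nearest coding gene. Among those that fell, the lincRNA 1169 bases upstream of DHRS3, a retinal reductase gene, on the same strand (chr1:12618900-12619244, 345 bases) had 0.693, 0.807 and 0.727 FPKM with fatty acid and 2.910, 1.831 and 2.942 FPKM in control (-1.28 ± 0.17, limma adjusted p = 0.00479). It rests on 10 reads with fatty acid and 25 in control, a ratio of 0.281 with an interval of 0.12 to 0.605. All its fatty acid libraries lay under 1 FPKM, so it became a member only through its control level. DHRS3 fell as well (7.70 ± 1.04 FPKM with fatty acid, 10.6 ± 0.684 FPKM in control; -0.44, adjusted p = 0.0297, lost in 4 of 6 fits with a library left out). The lincRNA divergent from ZNF567, a zinc finger gene, at 163 bases (chr19:36685440-36687449) had 1.156, 1.162 and 0.827 FPKM with fatty acid and 2.058, 2.082 and 2.081 FPKM in control. Its log2 fold change was -0.74 ± 0.12 (adjusted p = 0.0118), while that of ZNF567 was 0.38 (adjusted p = 0.209). These lincRNAs next to AFM, DHRS3 and ZNF567, with LINC00844, were the 4 of 27 whose calls held in all 6 fits with a library left out and under each other alternative that tested them. For the DHRS3 member, with 10 and 25 reads and membership through control alone, holding in these fits does not make the change firm.

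The lincRNA 664 bases downstream of NECAB3 (chr20:33655701-33656423) had 0.992, 1.252 and 0.954 FPKM with fatty acid and 2.314, 1.966 and 2.106 FPKM in control (-0.75, limma adjusted p = 0.0102). The call was lost without fatty acid replicate 1 (limma adjusted p = 0.054) and with voom on the recovered reads (adjusted p = 0.0581). At IRS1, the insulin receptor substrate gene, a divergent lincRNA 387 bases away (chr2:226800146-226811029) had 0.205, 0 and 0.644 FPKM with fatty acid and 1.146, 2.434 and 2.028 FPKM in control. That is 7 reads with fatty acid and 29 in control, a ratio of 0.169 with an interval of 0.0626 to 0.395, and IRS1 had 5.61 FPKM with fatty acid and 6.59 FPKM in control (-0.21, adjusted p = 0.16). The call at IRS1 was lost in 4 of 6 fits with a library left out, with adjusted p from 0.0206 to 0.0892, and with no expression filter (adjusted p = 0.07). All its fatty acid libraries lay under 1 FPKM, so this lincRNA became a member only through its control level.

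Further members that fell lay far from coding genes. The member 280925 bases from FOXO1, the forkhead factor of insulin signalling, had 1.720, 2.004 and 2.031 FPKM with fatty acid and 3.879, 3.219 and 5.274 FPKM in control (-0.91). FOXO1 itself had 28.96 FPKM with fatty acid and 24.8 FPKM in control (0.22, adjusted p = 0.0719). The member 107340 bases upstream of TSC22D1 had 3.169, 3.355 and 4.081 FPKM with fatty acid and 5.107, 7.231 and 6.727 FPKM in control (-0.76), and TSC22D1 also fell (-0.24, limma adjusted p = 0.0271). The members nearest KCNA4, CD180 and C8orf34, genes themselves under 0.5 FPKM, had log2 fold changes of -0.74, -0.47 and -1.23 and limma adjusted p of 0.0213, 0.0188 and 0.0197. The C8orf34 member rests on 18 reads with fatty acid and 38 in control, a ratio of 0.332 with an interval of 0.178 to 0.597. It became a member mainly through its control level. All 5 lost their call in 2 or 3 of the fits with a library left out, those nearest TSC22D1, KCNA4 and C8orf34 also with no expression filter, and the one nearest TSC22D1 also with voom.

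The 5 members that were higher besides CCAT1 were mostly far from any expressed coding gene. The strongest rise was in a member 100999 bases upstream of GOLGA6L6, a golgin-like gene of a duplicated family (chr15:20642799-20643448), with 8.828, 11.140 and 8.396 FPKM with fatty acid and 4.977, 5.589 and 3.644 FPKM in control (0.94 ± 0.16, limma adjusted p = 0.0124). Reads from near-identical copies may be shared there. A member of 7060 bases and 1 exon, 53603 bases from FAM50B (chr6:3904920-3911979), was among the 8 most abundant, with 30.261, 30.621 and 26.203 FPKM with fatty acid and 23.131, 22.707 and 21.448 FPKM in control (0.36). The members nearest KCNMB2 (0.31) and FGF9 (0.32), each over 300 kb away from a gene at under 0.1 FPKM, and the member overlapping GCLC, a glutathione synthesis gene, on the same strand (0.55; GCLC 0.22, adjusted p = 0.0593) complete the list. Of 6 fits with a library left out, the GCLC member lost its call in 6 (limma adjusted p from 0.058 to 0.17), the FGF9 member in 5, the KCNMB2 member in 4, the FAM50B member in 3 and the GOLGA6L6 member in 2, and each of the 5 lost it without fatty acid replicate 1 and without replicate 2. The FGF9 and GCLC members also lost it under median of ratios and nuclear scaling, with no expression filter, without the intensity trend and with the replicate block, and the FAM50B member without the trend.

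Among members that did not pass, the largest rise was in a member overlapping CRLF3 on the opposite strand, with 2.070, 1.658 and 2.308 FPKM with fatty acid and 0.241, 1.367 and 0.732 FPKM in control. Its log2 fold change of 1.06 (limma adjusted p = 0.063) rests on 36 reads with fatty acid and 9 in control. It became a member mainly through its level with fatty acid. The others among the 10 lowest p-values for a rise lay nearest ADGRA3 (0.88), RALYL (0.21), SLC13A5 (0.53) and CCDC140 (0.23), with adjusted p from 0.0657 to 0.0842.

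**Figure D4:**
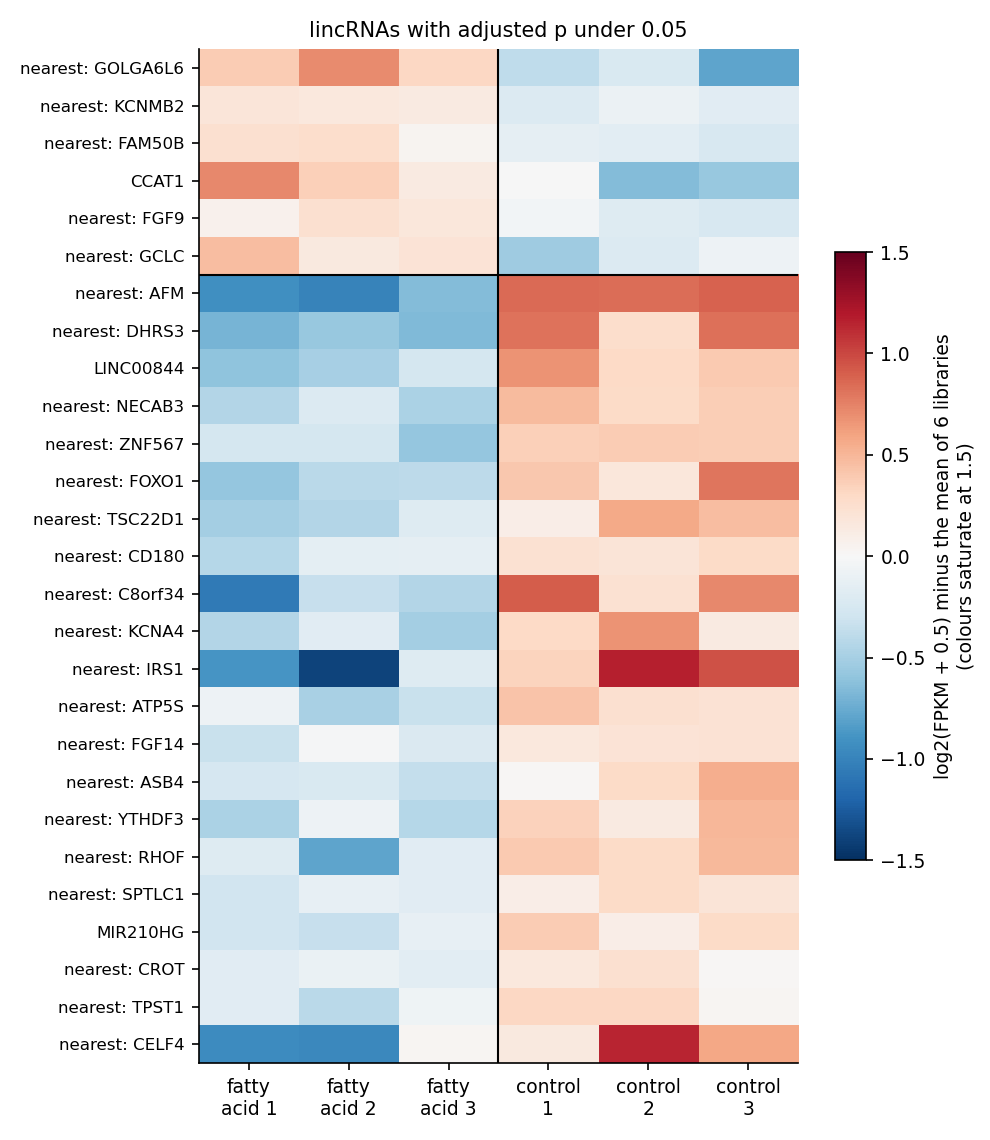
log2(FPKM + 0.5) minus the mean of the 6 libraries for the 27 lincRNAs with an adjusted p under 0.05, the 6 higher above the line and the 21 lower below it, with fatty acid libraries left of control libraries; unnamed lincRNAs carry their nearest coding gene. The lincRNA nearest AFM is similar among the libraries of each group, while those nearest IRS1 and CELF4 vary between replicates.

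Changes of a lincRNA and of its nearest coding gene were more alike for pairs on the same strand that overlap or lie within 5 kb than for other pairs, which is a description across pairs that share the 6 libraries and, in part, reads. For 13 overlapping pairs on the same strand, Pearson's r of the log2 fold changes was 0.47 and Spearman's rho 0.66, and 12 pairs (92.3%) had the same sign. Among 24 pairs on the same strand within 5 kb, r was 0.7 and rho 0.45, 15 pairs (62.5%) had the same sign, and r was 0.55 without the AFM pair. In 18 of them the lincRNA lay downstream, with r of 0.83 (0.64 without the AFM pair) and rho of 0.38. In the 6 with the lincRNA upstream r was only 0.22, while rho was 0.6. For 86 pairs on opposite strands within 5 kb r was 0.26 and rho 0.24, and for 33 overlapping on opposite strands 0.09 and 0.06. From 5 to 50 kb r was 0.13 on the same strand (33 pairs) and -0.17 on opposite strands (23 pairs), and over 50 kb it was -0.05 (42 pairs) and 0.04 (56 pairs). Same-strand neighbours can share reads where a transcript runs on past an annotated end, which was not tested.

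Pairs in which both genes passed within 5 kb were the AFM and DHRS3 pairs. Of 78 divergent pairs within 5 kb, 15 had a coding gene that passed and 4 a lincRNA that passed, near the shares of 15.7% of coding genes and 6.26% of members. Both passed in 0 of these pairs, from which nothing is read at such shares. Pairs described next were chosen after their values were seen. The lincRNA 1802 bases downstream of LBP, the acute-phase gene of lipopolysaccharide-binding protein, had a log2 fold change of 0.86 (limma adjusted p = 0.0927), the same as that of LBP (0.86, adjusted p = 0.000403). In contrast, a lincRNA that overlaps SLC39A8, a zinc and manganese importer gene, on the same strand had 0.17 (adjusted p = 0.358), while SLC39A8 was higher by 1.35 (adjusted p = 8.74e-05). For KLF11, whose lincRNA lies divergent at 2186 bases, the coding gene was higher by 0.69 (adjusted p = 0.000664) and the lincRNA had 0.12 (adjusted p = 0.474).

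**Figure D5:**
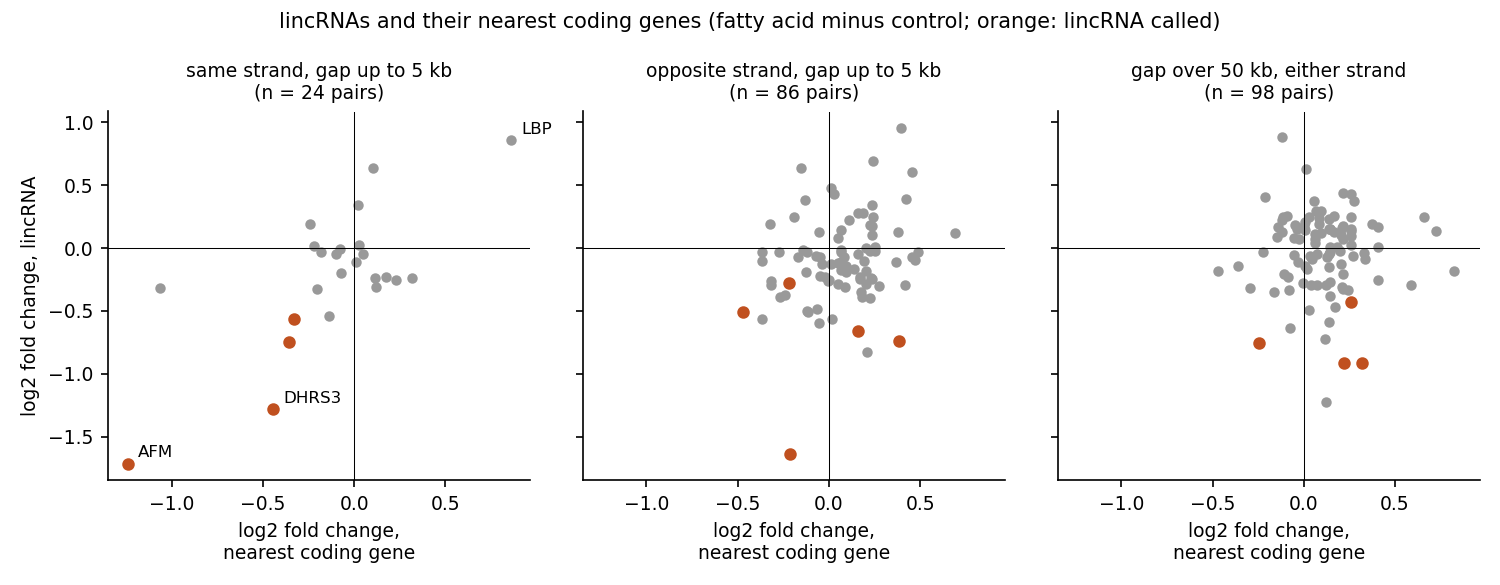
log2 fold change of the lincRNA against that of its nearest coding gene, fatty acid minus control, for pairs on the same strand within 5 kb (24 pairs), on opposite strands within 5 kb (86 pairs) and over 50 kb apart (98 pairs); orange marks lincRNAs with an adjusted p under 0.05. The AFM, DHRS3 and LBP pairs lie towards the corners of the same-strand panel, and the other panels show no such spread along a diagonal.

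The protein partners of the best-known lincRNAs were read from the same fit, in which 12.9% of all genes tested passed, 8.22% higher and 4.68% lower. Of 31 tested proteins of paraspeckles, the bodies that NEAT1 scaffolds, 6 were higher and 0 lower. Among the 6 were TARDBP (13.7 ± 0.704 FPKM with fatty acid, 10.6 ± 0.529 FPKM in control, 0.36, limma adjusted p = 0.0156), HNRNPK (0.24), HNRNPR (0.27) and HNRNPH3 (0.25). That count was 2 under median of ratios scaling or scaling to nuclear reads, 13 under TPM, and 0 without fatty acid replicate 1 or 2. Of 19 nuclear speckle proteins, BCLAF1 (0.35) and SRSF3 (0.22) were higher and SRRM2 (-0.26) was lower, and the count was 0 when any 1 of 4 of the libraries was left out. Of 8 small nucleolar RNP proteins, NOP58 (0.36), GAR1 (0.55) and DKC1 (0.24) were higher, a count that came to 1 under median of ratios scaling and 0 without fatty acid replicate 1 or 2. The medians of these lists, 0.13 for paraspeckle, 0.03 for nuclear speckle and 0.1 for small nucleolar RNP genes, stand beside 0.04 for all genes tested.

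Some well-known long noncoding RNAs carry another type in the table and so are no members. Of 31 such RNAs, or of lincRNAs under 1 FPKM, with a mean of at least 0.5 FPKM, 2 passed, against 12.9% of all genes tested. H19, the imprinted RNA next to IGF2 that is abundant in fetal liver, had 5.078, 4.535 and 5.685 FPKM with fatty acid and 12.754, 11.797 and 11.618 FPKM in control. Its fall (-1.17 ± 0.09, limma adjusted p = 0.000361) held with any 1 library left out, and IGF2 was under the minimum for testing. SNHG5 had 80.1 ± 5.24 FPKM with fatty acid and 61.2 ± 6.06 FPKM in control (0.39, adjusted p = 0.0265), and lost its call when any 1 of the 3 fatty acid libraries was left out. TUG1, GAS5, SNHG6, SNHG16, DANCR, ZFAS1 and OIP5-AS1, all above 10 FPKM, did not pass.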

How the data were processed

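Per the labels' protocols, 100 ng of RNA went into each stranded poly-A library. Per the submitters' processing notes, GRCh38, STAR 2.5.2, Subread 1.5.1 and featureCounts were used. The strand setting and annotation release are not given in the sources used here. FPKM values were deposited by the authors in 1 table that gives, per the file headers, each gene's name, type, position, strand and length in bases. FPKM times length came out as whole multiples of 1 read for 99.99% to 100% of the values fine enough to tell (tolerance 0.02 reads), which gave the depths of 6.33 to 15.94 M reads per library.

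Groups and replicate numbers came from the sample titles. The test, on the 14661 genes averaging 0.5 FPKM or more, was limma 3.58.1 under R 4.3.3 (moderated linear model, variance trend over the mean) with log2(FPKM + 0.5) as input, fatty acid against control, all 6 libraries, no covariate, with Benjamini-Hochberg adjustment over all genes tested and a threshold of 0.05. The fit was tested on simulated data. Adjusted p in the text is from this fit. With 3 against 3 libraries an exact permutation test cannot go below 0.1, so none was run.

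The members, the list of well-known RNAs and the partner and marker lists were chosen with earlier results of these data known. Members on the list of well-known RNAs are named, except where a gene is not reported here; counts still include it. Other members are described by their nearest protein-coding gene (smallest gap between gene bodies), the 10 with the lowest adjusted p in each direction, beside counts over all members. Up to 4 passing genes with the lowest p are named per partner list. KLF11, LBP, SLC39A8 and the markers were named after their values were seen.

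Same-numbered replicates of the groups deviated together by correlations of 0.0122, 0.0836 and 0.0224, so the numbers were not taken as pairs. Promoters and microRNAs are from RefSeq (GRCh38.p14) and transcripts from GENCODE 29. Read ratios carry 95% exact intervals, from a binomial conditional on the summed reads. Tools further used were Python 3.11.15, numpy 2.4.6, pandas 2.3.3, scipy 1.17.1 and matplotlib 3.10.9. Alternatives were pseudocounts of 0.1 and 1, no filter or a minimum of 2 FPKM, 3 other scalings (median of ratios, TPM, nuclear reads), no intensity trend, a replicate block, voom on the recovered reads, other member levels and each library left out. Added after the data were seen were the hypoxia motif, r without the AFM pair and the read ratio intervals.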

Additional observations from a re-analysis of the deposited data

How the results depend on the processing

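The count of 27 lincRNAs (6 higher, 21 lower) was the same with pseudocounts of 0.1 and 1. It was 10 (3 higher, 7 lower) with no expression filter, in a fit over 28422 genes of which 3.44% passed. The reason for that drop was not tested. With TPM the count was 41 (25 higher, 16 lower), 22 of them among the 27. Without the intensity trend it was 17 (2 higher, 15 lower). Scaling to nuclear reads gave 24, with 3 higher, and a member level of 2 FPKM gave 17 of 228 members, with 11 lower. With 1 library left out, the count ranged from 6 to 26, that of higher lincRNAs from 0 to 7 and that of lower ones from 6 to 19. The replicate block gave 26 (4 higher, 22 lower), of which 19 were among the 27. With voom on the recovered reads 28 members passed (6.5%), 19 of them among the 27, and 2999 genes of all types (20.5%). Of the 27 calls, 4 held in all 6 fits with a library left out, 23 were lost in at least 1 and 2 in all 6.

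The 6 paraspeckle genes called were 3 with no filter and with the replicate block, 2 with median of ratios or nuclear scaling, 13 with TPM, 1 without the trend, 11 with voom, and 0 to 5 with a library left out. The 3 nuclear speckle genes were 0 without the trend and 0 to 3 with a library left out. The 3 small nucleolar RNP genes were 1 with median of ratios or nuclear scaling, without the trend and with the block, and 0 to 3 with a library left out.

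Of 1388 single-gene values over 88 genes, 1083 kept direction and side of the threshold, 256 lost a call, 33 gained one and 16 changed sign, none of a called gene. With TPM, log2 fold changes were 0.08 for LINC00261, 0.07 for LINC00467, 0.03 for SNHG15 and 0.03 for SNHG8. With median of ratios and with nuclear scaling EPB41L4A-AS1 had -0.02, and with nuclear scaling FOXA2 had -0.0017. With a library left out, values ranged from -0.07 to 0.09 for EPB41L4A-AS1, -0.1 to 0.03 for LINC00261, -0.09 to 0.02 for LINC00467, -0.01 to 0.31 for LINC01116, -0.03 to 0.47 for MALAT1 and -0.4 to 0.3 for SNHG25, and FOXA2 had -0.02 without fatty acid replicate 3. The cause of these differences was not tested. By start site distance, 124 members lay within 5 kb of a coding gene, against 189 by gap. Depth limits the low members: at 1 FPKM, 1 kb of transcript holds 6.331 to 15.94 reads per library.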
